A study of Trametes pubescens and Hermanssonia centrifuga with 16 samples.

Results

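Trametes pubescens, a white-rot fungus that grows mainly on dead wood of deciduous trees, was compared between spruce wood and wheat straw at 25 °C. The 4 libraries were taken by their titles from the 16 of the series, 2 from cultures on spruce and 2 from cultures on straw. All 4 came from mycelium of the single strain FBCC735, with no transgene or deletion named in the labels. Per the labels' protocols the fungus was first grown in liquid at 25 °C and then for 21 days on 2 g dry weight of either Norway spruce (Picea abies) sticks or wheat (Triticum aestivum) straw pieces at 60% moisture, so the groups differ in the substrate and share the strain, the temperature and the time. Messenger RNA was sequenced, and the deposited value is 1 whole-number count per gene model and library. The 4 libraries of the same fungus at 15 °C (2 on straw, 2 on spruce) entered the fit as groups of their own. They added nothing to the 2 group means compared, but informed the estimate of the spread, the filter on low counts and the scaling. The labels do not tell whether the 2 libraries of a group are separate cultures, and p-values here describe the spread between libraries, which may be technical.

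White-rot fungi secrete oxidative enzymes that attack lignin, together with hydrolases and lytic monooxygenases that open cellulose and hemicellulose. The substrates differ in the polymers they offer. Spruce is a softwood with guaiacyl lignin and galactoglucomannan as its main hemicellulose, and straw is a grass tissue with arabinoxylan and lignin-bound hydroxycinnamic acids. Which of the fungus's genes follow this difference is the question of the comparison. The files name each gene model by a number, a scaffold and an order number on that scaffold, all with the prefix Trapub1, and pair none of them with a gene name. No function is therefore given for a gene, the lists of enzymes and transporters planned for this comparison were not examined, and neither the fungus nor its tissue could be checked against marker genes. At most 2 genes higher and 2 lower on spruce are identified below, and the remaining genes are described by their number, level, direction and place.

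The libraries held 10422148 and 11266387 counts on straw and 13635999 and 10698298 on spruce, and between 12295 and 12327 of 14451 gene models had at least 1 count. At this depth 11622 models passed the filter on low counts and were tested, 2829 were not tested, and 1925 had no count in any of the 4 libraries. The tested genes held at least 99.97% of each library. Levels are given in CPM, counts relative to a common library total after TMM scaling (a trimmed mean of log ratios between libraries), and are not corrected for gene length. Because the scaling sets the bulk of genes equal, a change in total RNA per cell or in the amount of mycelium does not show in these values. Mycelium was sequenced in bulk, so a gene's change within cells cannot be told apart from a change in the mix of cells.

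Growth on spruce at 25 °C was accompanied by a higher level of 490 genes and a lower level of 399 genes relative to straw. Calls were made with edgeR's quasi-likelihood test and required a Benjamini-Hochberg adjusted p under 0.05. The 889 called genes were 7.65% of those tested, 4.22% higher and 3.43% lower. The called genes that were higher had log2 fold changes from 0.76 to 6.01 with a median of 1.55 and quartiles of 1.2 and 2.08. For the lower genes the median was -1.60, the quartiles were -1.17 and -2.10, and the extreme was -6.78. The median standard error of a called gene was 0.28 log2 units, and the smallest called difference was 1.69-fold. Over all tested genes the median was 0.02, with quartiles of -0.33 and 0.38.

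Most called differences were moderate in size. Of the higher genes 55 differed by less than 2-fold, 305 by 2-fold to 4-fold, 84 by 4-fold to 8-fold and 46 by 8-fold or more, the last being 0.396% of the tested genes. For the lower genes these numbers were 46, 242, 80 and 31, the last being 0.267%. The libraries of each of the 889 called genes did not overlap between the substrates. Absence of overlap alone was common among the tested genes, with spruce above straw in 23.6% of them and spruce below straw in 23.9%, and 4626 genes without overlap were not called. An unadjusted p below 0.05 was reached by 2649 genes, 1351 higher and 1298 lower.

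**Figure D1:**
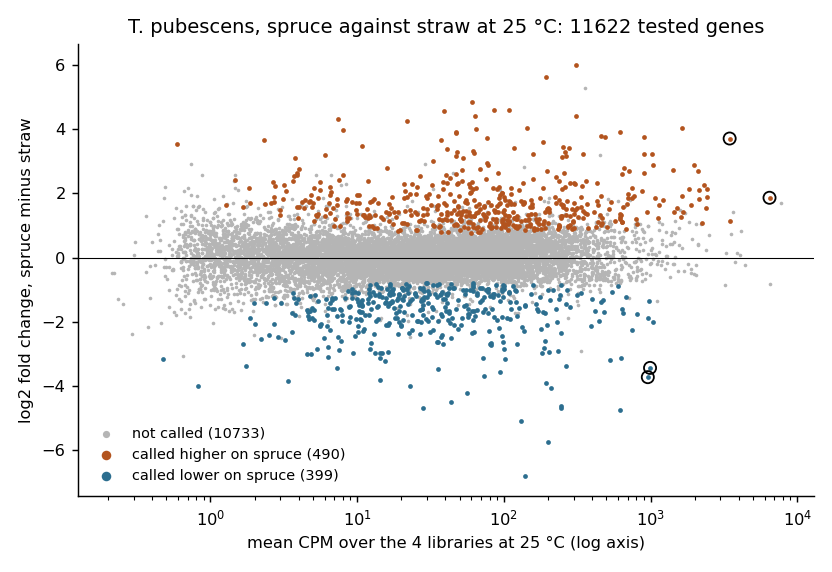
Log2 fold change of spruce against straw (vertical axis) against the mean CPM over the 4 libraries at 25 °C (horizontal log axis) for 11622 tested genes; orange points were called higher (490), blue points called lower (399) and grey points not called, and black circles mark the 4 genes identified in the text. The orange points reach further to the right than the blue ones, and all called points lie beyond a 1.69-fold difference.

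The 2 directions differed in where they lay along the range of mean counts, a measure that contains the change itself. The tested genes were divided into 4 equal parts by their mean CPM over the 4 libraries. In the part with the most counts, from 79.8 CPM upwards, 234 genes were called higher (8.05% of that part) and 102 lower (3.51%). From 30.1 to 79.7 CPM the shares were 4.10% higher and 3.10% lower. Between 8.43 and 30.1 CPM the order turned, with 2.58% higher and 4.89% lower. In the part with the fewest counts, up to 8.43 CPM, 2.13% were higher and 2.24% lower. A raised gene is moved up this range by its rise and a lowered gene down by its fall, so part of the pattern follows from the sorting. The shares also depend on the counts available to the test in each part, and no test compared the parts. The genes called higher had a median of 36.0 CPM on straw and 110 CPM on spruce, and those called lower had a median of 41.6 CPM on straw and 13.6 CPM on spruce. On straw alone the medians of the 2 sets were thus close.

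The genes called higher made up more of the sequenced RNA on spruce than those called lower did on straw. The 490 higher genes took 5.71% and 6.13% of the counts in the straw libraries and 18.1% and 17.0% in the spruce libraries. The 399 lower genes took 6.44% and 5.41% on straw and 1.37% and 1.52% on spruce. The direction of these shares follows from the calls themselves, and only their size is informative. That size also depends on how many genes are in each set, which changed with the scaling. With library totals in place of TMM 331 genes were called higher and 590 lower, and the shares here are for the TMM calls only.

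Counts were also more concentrated on spruce, in values that did not use the calls. The 10 genes with the most counts took 4.56% and 4.74% of the 2 straw libraries and 6.87% and 5.40% of the 2 spruce libraries, a mean of 4.65% ± 0.12 against 6.13% ± 1.04 (SD, n = 2 each). For the first 100 genes the shares were 18.1% and 17.9% on straw and 24.8% and 21.7% on spruce, or 18.0% ± 0.088 against 23.3% ± 2.2 (SD, n = 2 each). Both spruce libraries stood above both straw libraries in either share, and the spruce libraries lay further apart than the straw libraries. The exact two-sided permutation test gave p = 0.333 for both shares, the smallest value that 2 libraries against 2 allow, so the difference could not reach 0.05. The 100 genes with the most counts were also not the same on the 2 substrates. The straw libraries had 85 of these genes in common and the spruce libraries 76, while a straw and a spruce library had 51 to 63 in common. In the spruce libraries 37 and 36 of the 100 were called higher and 0 called lower, against 4.22% and 3.43% of all tested genes and 8.05% and 3.51% of those from 79.8 CPM upwards. In the straw libraries 13 and 11 of the 100 were called lower on spruce, and 7 and 10 were called higher on spruce. Genes picked by their count on one substrate favour calls toward that substrate, so these numbers are a description.

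**Figure D2:**
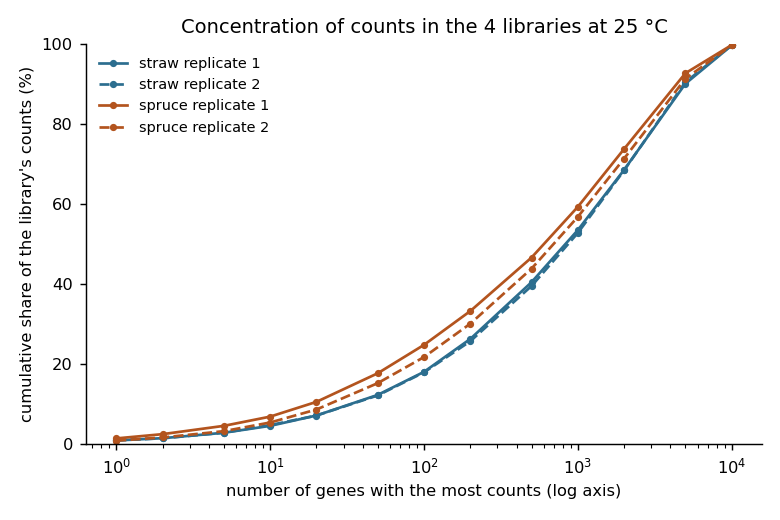
Cumulative share of a library's counts (vertical axis, %) held by its genes with the most counts (number of genes on the horizontal log axis), for the 2 straw libraries (blue) and the 2 spruce libraries (orange) at 25 °C, with replicate 1 as a solid and replicate 2 as a dashed line. At 100 genes the straw lines are close together, at 18.1% and 17.9%, and the spruce lines lie above them, at 24.8% and 21.7%; at either end of the axis the line of spruce replicate 2 is not above both straw lines.

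The genes identified are those with the highest mean CPM on their higher substrate among the called genes that differed by at least 2-fold without overlap. Among the higher genes, jgi|Trapub1|4862|scaffold_1556.11 (model 11 of scaffold 1556) stood at 2598 and 2992 CPM in the straw libraries and at 11864 and 8455 CPM in the spruce libraries. It held the highest count of all genes in the second spruce library and ranked 2 in the first, and it already ranked 12 and 10 on straw. Its mean rose from 2795 ± 279 to 10159.8 ± 2411 CPM (SD, n = 2 each), which is 1.86 ± 0.31 log2 units (SE; edgeR adjusted p = 0.00712).

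The other gene, jgi|Trapub1|874|scaffold_1085.11 (model 11 of scaffold 1085), stood at 507 and 479 CPM on straw and at 9795 and 3076 CPM on spruce. Both spruce values were far above both straw values, but they differed from each other more than 3-fold. It ranked 255 and 275 by count on straw and 3 and 18 on spruce. The difference was 3.71 ± 0.64 log2 units (SE; edgeR adjusted p = 0.00861), from 493 ± 20.3 to 6436 ± 4751 CPM (SD, n = 2 each). Genes 4862 and 874 were not called when either straw library at 25 °C was left out, although the size of their differences hardly moved. The log2 fold changes of 4862 and 874 were 1.76 and 3.75 without the first, and 1.97 and 3.67 without the second. Their standard errors were wider, at 0.45 and 0.95 without the first and 0.45 and 0.94 without the second. The size of the difference of gene 874 depended on the spruce libraries, at 2.64 log2 units without the first at 25 °C and 4.31 without the second.

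The lower genes identified carry consecutive numbers on scaffold 462. The first, jgi|Trapub1|10552|scaffold_462.4 (model 4), stood at 2095 and 1539.9 CPM on straw and at 202 and 134 CPM on spruce. Its rank by count went from 18 and 32 on straw to 1105 and 1574 on spruce. Its mean fell from 1818 ± 393 to 168 ± 47.9 CPM (SD, n = 2 each), a difference of -3.43 ± 0.32 log2 units (SE; edgeR adjusted p = 0.000868).

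Its neighbour, jgi|Trapub1|10553|scaffold_462.5 (model 5), stood at 2180.3 and 1384 CPM on straw and at 151 and 119.5 CPM on spruce. As in model 4, the first library of each substrate was above the second. The fall was from 1782 ± 563 to 135 ± 22.0 CPM (SD, n = 2 each), a difference of -3.72 ± 0.36 log2 units (SE; edgeR adjusted p = 0.000871). Whether these neighbours overlap, or share reads through similar sequence, was not tested, since no annotation was used here and the strand setting of the counting is not given in the sources used here. The calls of genes 10552 and 10553 held in every setting tried for them, with an adjusted p of at most 0.0102.

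**Figure D3:**
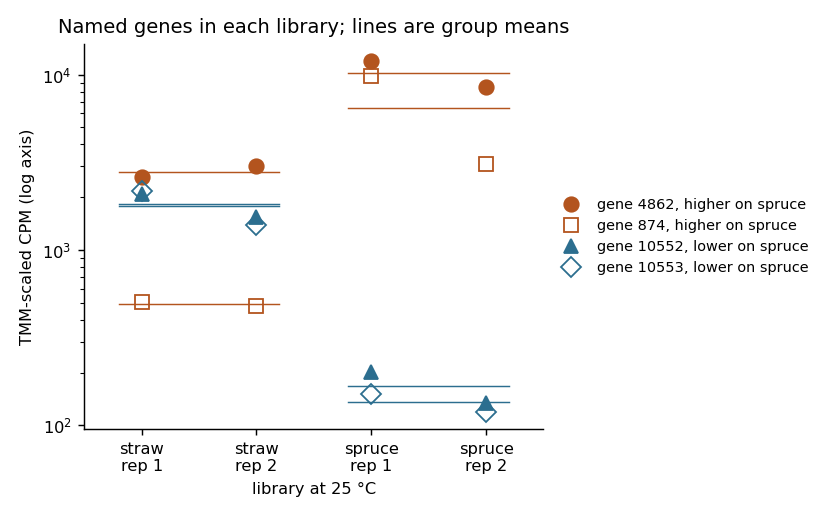
CPM (vertical log axis) of the 4 identified genes in each of the 4 libraries at 25 °C (horizontal axis), with genes 4862 and 874 (higher on spruce) in orange, genes 10552 and 10553 (lower on spruce) in blue and the mean of each pair of libraries as a line. The points of a gene do not overlap between the substrates, and gene 874 has the widest gap between its spruce libraries, at 9795 and 3076 CPM.

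The 2 spruce libraries differed from each other more than the 2 straw libraries did. The SD between libraries of log2 CPM over the tested genes was 0.36 on straw and 0.46 on spruce, and the libraries of a group had a Pearson r across genes of 0.976 on straw and 0.963 on spruce, where genes are not independent replicates. A difference of more than 2-fold between the libraries of a group was seen in 541 genes on straw (4.65%) and in 1162 on spruce (10%). Among the 889 called genes it was seen in 30 on straw (3.37%) and 96 on spruce (10.8%). The counts of a pair differed by more than sampling noise (chi-square per degree of freedom of 36.9 on straw and 89.1 on spruce), so neither pair was treated as a repeated deposit of 1 library.

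The genes with a large difference that were not called had more spread and fewer counts. The test sets a difference against its standard error, so the direction of this contrast follows from the calls and only the sizes are informative. In all, 1324 tested genes differed by at least 2-fold between the substrates, and 788 of them were called, 435 higher and 353 lower. The remaining 536 had a median standard error of 0.46 log2 units against 0.29 for those called, and a median of 6.25 CPM against 48.1 CPM. Their spruce libraries differed by more than 2-fold in 37.9% and their straw libraries in 17.0%, against 12.2% and 3.81% of the called genes. Of the 536, 62 had libraries that overlapped between the substrates, against 6107 of all 11622 tested genes. A choice by a 2-fold difference in itself favours absence of overlap, so this number is a description.

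**Figure D4:**
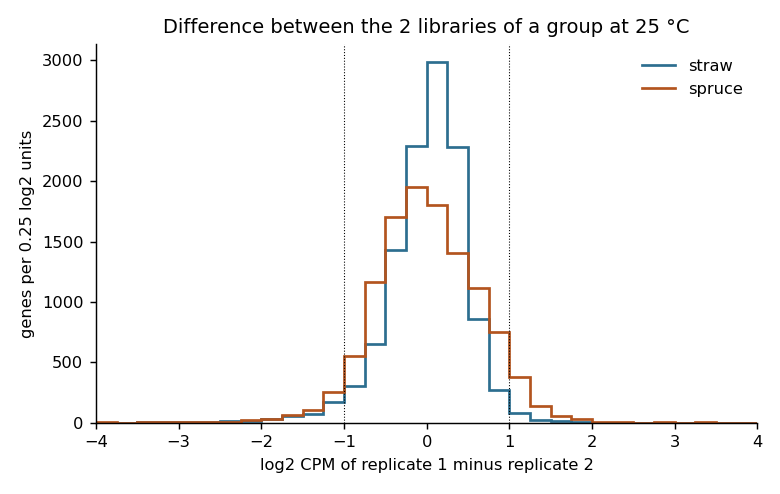
Number of tested genes (vertical axis, per 0.25 log2 units) by the difference in log2 CPM between replicate 1 and replicate 2 of a group (horizontal axis, shown from -4 to 4), for straw (blue) and spruce (orange) at 25 °C; dotted lines mark a 2-fold difference. The spruce outline is lower and broader, with 10% of the genes beyond the dotted lines against 4.65% for straw.

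Because no called gene overlapped between the substrates, each spruce library had to lie on the called side of straw, and only the sizes below are informative. Set against the mean of the straw libraries, the genes called higher had a median log2 difference of 1.58 in the first spruce library and 1.48 in the second, and the genes called lower had -1.57 and -1.48. On the straw side the genes called lower on spruce were further from the spruce mean in the first library, with a median log2 difference of 1.70 against 1.40 in the second. Of these 399 genes, 303 were higher in the first straw library than in the second, against 235 of the 490 genes called higher on spruce. Of all tested genes a smaller majority was also higher in the first straw library. Over all tested genes the median log2 difference from the spruce mean was 0.0092 in the first straw library and -0.017 in the second. The genes called higher on spruce showed no such gap between the straw libraries, with medians of -1.53 and -1.51.

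The number of calls depended on the straw libraries more than on the spruce libraries. Without the first straw library at 25 °C 307 genes were called (164 higher, 143 lower), and without the second 422 (202 higher, 220 lower), which turned the majority. Leaving out a spruce library at 25 °C gave 810 calls (the first) or 1297 (the second). Each of these fits lost part of the 889 calls and gained others, so a similar total does not mean the same genes. A fit of the 4 libraries at 25 °C alone called 514 genes, 505 of which were among the 889. With library totals in place of TMM the median gene lay at -0.20 log2 units in place of 0.02. Then 331 genes were called higher and 590 lower, so the direction with more calls depended on the scaling. Of the 889 genes, 730 were among these calls. None of the 889 genes changed sign in any of the settings tried in which it was tested. A group of 248 genes, 27.9% of those called, was called in each of 14 settings, namely 8 fits that each lacked 1 library, RLE scaling, library totals, DESeq2, limma-voom, no filter on low counts, and the 4 libraries alone. The filter at 10 CPM, which removes part of the called genes before the test, and the replicate block were not among the 14. The 4 fits that lacked a library at 25 °C gave these same 248 genes by themselves, so the other settings removed none. Of the 248, 129 were higher and 119 lower. Their differences were larger, which a choice by repeated calls favours, with a median absolute log2 fold change of 2.32 and a minimum of 1.30.

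Genes that changed in the same direction often lay side by side. The order numbers of the models on a scaffold were taken as their order along it. Of the 490 genes called higher, 132 (26.9%) had a neighbour with the next or previous number that was also called higher, and 21 (4.29%) had a neighbour called lower. Of the 399 called lower, 100 (25.1%) had a neighbour called lower and 21 (5.26%) a neighbour called higher. Of the 10733 genes not called, 6.33% had a neighbour called higher and 5.24% a neighbour called lower. Both directions together gave 232 of 889 (26.1%, exact binomial 95% interval 23.2 to 29.1%, which treats genes as independent although neighbours are counted for each other). The part that reads shared between overlapping or similar neighbouring models have in these numbers was not tested.

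Calls were spread over 376 of the 832 scaffolds with a tested gene, and 121 scaffolds held calls in both directions. Scaffold 573 held the most, with 12 calls among 32 tested genes (37.5% against 7.65% overall), of which 9 were higher and 3 lower. Single calls made up 657 of the 889. The others formed 72 runs of 2 consecutive models, 23 runs of 3, and 4 runs of 4 or more. The runs described next were chosen after their values were seen, and are located by scaffold.

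The longest run had 6 consecutive models on scaffold 304, which carries 40 models, all 6 higher on spruce. Their summed level was 131 and 123 CPM in the straw libraries and 865 and 369 CPM in the spruce libraries, and the log2 fold changes ran from 1.79 to 2.63 (edgeR adjusted p from 0.00296 to 0.0404). The straw libraries were close to each other and the first spruce library stood above the second. The next run had 5 models on scaffold 1655, which summed to 327 and 398 CPM on straw and 6453 and 3597 CPM on spruce. Their log2 fold changes ran from 1.79 to 4.05 (edgeR adjusted p from 0.000871 to 0.0321), and here too both spruce libraries were far above straw.

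Both runs of 4 models were lower on spruce. On scaffold 1303 the run summed to 1292 and 853 CPM on straw and 118 and 174 CPM on spruce, with log2 fold changes from -4.70 to -2.0. All 7 calls on that scaffold, among 19 tested genes, were lower. On scaffold 1325 the run summed to 248 and 285 CPM on straw and 72.2 and 53.2 CPM on spruce, with log2 fold changes from -2.47 to -1.88. Sums of genes called in one direction cannot overlap between the substrates, since none of the called genes did. The fit of the 4 libraries alone called 505 of all 889 called genes, and 17 of the 19 models in the 4 runs. It reuses the libraries by which these 19 models were chosen, so their number is a description. In each of the 14 settings 10 were called, 1 of the 6 on scaffold 304 and 3 in each of the other runs. Over all runs of 2 or more models, 86 of 232 genes (37.1%) were called in each of the 14 settings, and of the single calls 162 of 657 (24.7%).

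**Figure D5:**
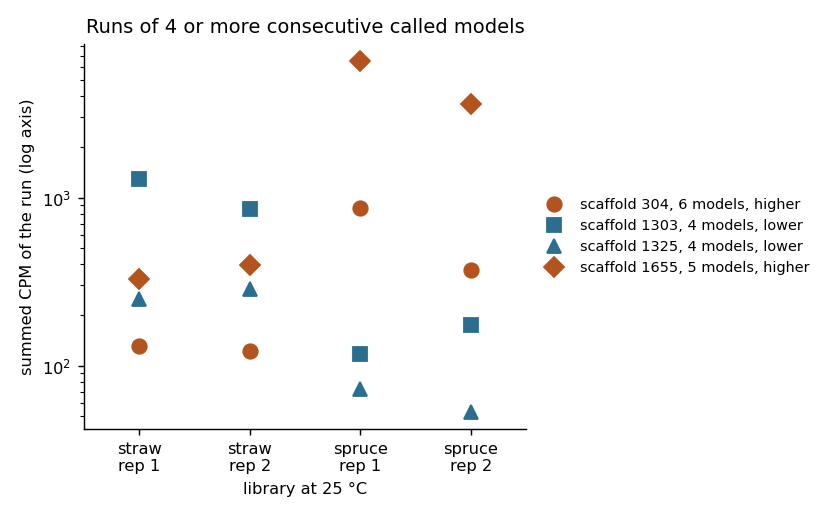
Summed CPM (vertical log axis) of the 4 runs of 4 or more consecutive called models in each of the 4 libraries at 25 °C (horizontal axis), with runs higher on spruce in orange and runs lower on spruce in blue. The run on scaffold 1655 goes from 327 and 398 CPM on straw to 6453 and 3597 CPM on spruce, the widest gap of the 4 runs.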

How the data were processed

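The deposited values are raw counts per gene model, which the authors left unnormalized. Trimmomatic 0.36 and STAR 2.7.10a were used, per the submitters' processing notes. How reads were assigned to strands, and to which genome build and annotation, is not given in the sources used here. From these counts, genes were filtered with edgeR's filterByExpr and scaled by TMM. One mean per group was fitted over the 8 T. pubescens libraries without a block for the replicate number (glmQLFit and glmQLFTest, edgeR 4.0.16, R 4.3.3), leaving 4 residual degrees of freedom. Benjamini-Hochberg adjustment ran over 11622 genes, and standard errors are the absolute log2 fold change divided by the square root of F. Log2 CPM used a prior count of 2. The genes identified are the called genes with the highest mean CPM in their higher group, at least 2-fold changed and without overlap, 2 per direction. The libraries, lists and rules were chosen with earlier results of these data known. Alternatives were RLE scaling, library totals, DESeq2 1.42.0, limma-voom (limma 3.58.1), other filters, the 4 libraries alone, a replicate block and each library left out. Depth ranged from 10422148 to 13635999 counts in the 4 libraries, and the interval given covers counting error only. Shares were compared by exact permutation.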

Additional observations from a re-analysis of the deposited data

How the results depend on the processing

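The total of 889 called genes stayed within 1.5 times with RLE scaling, library totals, DESeq2, limma-voom, either filter and the replicate block. It was 514 (283 higher, 231 lower) in the 4 libraries alone, and 338 at an adjusted p below 0.01. In the 4 libraries alone fewer libraries inform the spread, and the closer pairs at 15 °C are left out. With 1 library left out it ranged from 307 to 1297 (164 to 710 higher, 143 to 587 lower), and the share with a neighbour called in the same direction from 21.5% to 26.9%. DESeq2 called 1274 genes, 883 of the 889 among them. The median gene went from 0.02 to -0.20 log2 units with library totals, and lay between -0.015 and 0.041 with 1 library left out. The difference in concentration between spruce and straw was 1.48 percentage points for 10 genes, 4.24 for 50 and 5.28 for 100, and 0.75 to 2.21 for 10 genes with 1 library left out. The titles number the libraries without saying that a number marks a shared batch. Deviations of same-numbered libraries correlated at 0.31, 0.43 and 0.44 among the groups other than straw at 25 °C, and at -0.19, -0.11 and -0.14 between straw at 25 °C and straw at 15 °C, spruce at 15 °C and spruce at 25 °C. The replicate block gave 982 calls, and, chosen after seeing the data, a block with the straw numbers at 25 °C exchanged gave 2013. With 2 libraries per group, differences under 1.69-fold were not called at this depth. The cause of these shifts was not tested.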
